A study of Homo sapiens with 20 samples.

Results

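The hormone response that changed when BRG1 was knocked down was measured gene by gene in T47D cells, an established human luminal breast cancer line with oestrogen and progesterone receptors. For each gene the interaction was taken, that is, the log2 fold change from 0 h to 6 h of hormone under an siRNA against BRG1 (si-BRG1) minus the same change under a control siRNA (si-control). This comparison used 8 of the 20 samples of the series, 2 libraries in each of 4 groups. A response that differed by this measure was called for 981 of 18806 genes tested (5.22%). The spread between libraries was estimated over all 16 siRNA libraries of the series. The hormone was R5020, a synthetic progestin, at 10 nM. The groups were si-control at 0 h, without hormone, si-control at 6 h of hormone, si-BRG1 at 0 h and si-BRG1 at 6 h. All were the same cell line, with no other genetic change given, and were grown without steroid hormones and then without serum before treatment, per the labels. The same series holds si-CBX3 and si-FOXA1 libraries at both times, 2 unreplicated libraries without siRNA and 2 lists of BRG1 binding sites, which are used below beside the result. By its title, the series concerns genes that the hormone represses and whether BRG1, by way of linker histone H1.2, is needed for that.

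BRG1, encoded by SMARCA4, is one of the alternative ATPases of the SWI/SNF complexes, which move or evict nucleosomes, and SMARCA2 encodes the other. The progesterone receptor is a transcription factor that binds DNA after it has bound a progestin. It raises some genes, such as the receptor chaperone gene FKBP5, and lowers others, among them its own gene PGR. An interaction above 0 can stand for a larger rise, a smaller fall or a rise in place of a fall when BRG1 is low, and an interaction below 0 for the opposite, so each gene's responses under both siRNAs are given with it. The siRNA effect is a partial knockdown rather than a deletion, and the sources used here do not say whether 1 or several siRNAs were used per target.

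The 8 libraries held 58296067 to 74374857 fragments assigned to genes. Levels are CPM, that is, counts brought to a common library size, with library sizes adjusted by TMM. Genes are called at an adjusted p below 0.05 in edgeR's quasi-likelihood test over all genes. SMARCA4 (ENSG00000127616.13, chromosome 19, 11071598 to 11176071, hg19) was at 76.6 and 65.7 CPM at 0 h and 61.7 and 63.0 at 6 h in si-control, and at 4.99 and 5.90 at 0 h and 2.26 and 5.66 at 6 h in si-BRG1. Every si-BRG1 library lay far below every si-control library, and the first si-BRG1 library at 6 h was the lowest of the 8. The interaction of SMARCA4 was -0.24 ± 0.30 (SE, adjusted p = 0.690). It was -1.08 without si-BRG1 6 h replicate 2 and 0.25 without replicate 1 of that group, so its sign depended on the library kept. SMARCA2 was at 42.4 and 37.5 CPM at 0 h and 26.3 and 24.3 at 6 h in si-control, and at 55.4 and 54.4 at 0 h and 32.7 and 42.9 at 6 h in si-BRG1, with an interaction of 0.12 ± 0.15 (SE, adjusted p = 0.671). The 24 luminal markers summed to 11623 to 16769 CPM in the 8 libraries, against 298 to 423 CPM for 18 basal markers measured, 13.7 to 21.5 CPM for 7 leukocyte markers and 13.0 to 36.1 CPM for 4 endothelial markers. In bulk RNA, fewer cells of a type and less RNA per cell cannot be told apart. The labels do not give the replicates as separate cultures, and p-values therefore reflect the spread between replicate libraries, which may be technical. That spread was estimated over all 16 siRNA libraries, those of si-CBX3 and si-FOXA1 included. Fitted on the 8 si-control and si-BRG1 libraries alone, 21 genes were called higher and 40 lower.

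Under BRG1 knockdown the hormone response was higher in 281 genes (1.49% of those tested) and lower in 700 genes (3.72%). The shifts were mostly small. The median interaction was 0.54 among genes called higher and -0.61 among genes called lower, and 29 and 84 of them reached a 2-fold difference between the responses. Both siRNAs left a broad response in place: 7070 genes (37.6%) changed with hormone under si-control and 6706 genes (35.7%) under si-BRG1. The response of each si-BRG1 pairing of a 6 h with a 0 h library lay outside the range of all si-control pairings in 279 of the 281 genes and in 700 of the 700. Such separation in the same direction occurred in 15.5% and 17.0% of all genes tested. The calls and the separation come from the same values, and a call with 2 libraries per group nearly requires it. The separation is therefore no further support for the calls.

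**Figure D1:**
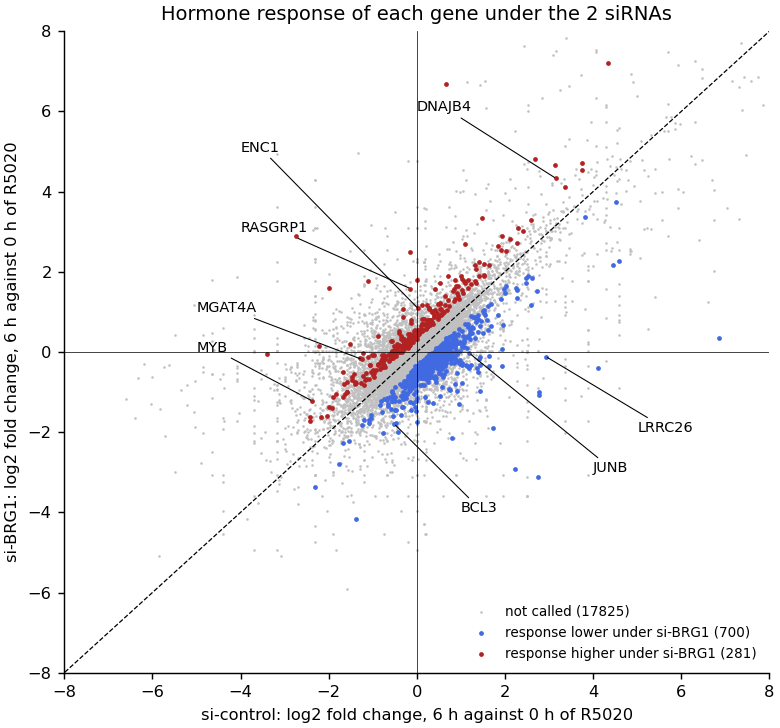
Each point is a gene, with its log2 fold change from 0 h to 6 h of R5020 under si-control on the x axis and under si-BRG1 on the y axis, and the dashed line marks equal responses. The 281 genes called higher (red) lie above the line and the 700 called lower (blue) below it, most of them within 1 log2 unit of it. 18 genes of low counts, none of them called, lie outside the axes.

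Among the 281 genes with a higher response, 89 rose under both siRNAs and rose more under si-BRG1, and 71 fell under si-control with no fall called under si-BRG1. Another 59 rose under si-BRG1 alone, 48 fell less under si-BRG1 than under si-control, and 14 were called in opposite directions. Among the 700 genes with a lower response, the commonest patterns were a rise under si-control alone (263 genes) and a fall under si-BRG1 alone (224 genes). A smaller rise was found in 84 genes, opposite calls in 79 and a larger fall in 50. Among genes with a rise called under both siRNAs, 89 rose more under si-BRG1 and 84 rose less. Left out of those numbers are the 263 genes with a rise called under si-control alone and the 59 under si-BRG1 alone.

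The siRNA groups could differ already before hormone or only after it. Of the 281 genes with a higher response, 145 differed between the siRNAs in that direction at 6 h alone, 107 differed in the opposite direction at 0 h alone, and 28 did both. Of the 700 with a lower response, the numbers were 425, 195 and 75. For comparison, 28.5% of all genes tested differed between the siRNAs at 0 h (2841 higher and 2511 lower under si-BRG1) and 37.3% at 6 h (3682 higher and 3342 lower). With DESeq2 size factors in place of TMM these numbers were 2490 and 3065 at 0 h, and 3290 and 3793 at 6 h. The interaction itself had 279 higher and 644 lower genes with those factors.

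The gene with the largest rise in response among the well measured genes was RASGRP1 (ENSG00000172575.7, chromosome 15, 38780304 to 38857776), which encodes a Ras guanine nucleotide exchange factor. RASGRP1 was at 8.20 and 8.49 CPM at 0 h and 7.18 and 7.89 at 6 h in si-control, and at 3.87 and 2.60 at 0 h and 8.60 and 10.7 at 6 h in si-BRG1. Its si-BRG1 libraries were low before hormone and level with si-control after it, and the interaction was 1.73 ± 0.23 (SE, adjusted p = 0.00130). CDK6, a cyclin-dependent kinase of the G1 phase, was at 7.64 and 9.69 CPM at 0 h and 7.31 and 6.50 at 6 h in si-control, and at 8.51 and 9.66 at 0 h and 14.6 and 18.8 at 6 h in si-BRG1. Only the si-BRG1 libraries at 6 h stood above the others, and the interaction was 1.21 ± 0.18 (SE, adjusted p = 0.00267). CYP1B1, an oxidase of oestrogens and other substrates, was at 70.7 and 86.4 CPM at 0 h and 108 and 119.5 at 6 h in si-control, and at 143 and 133 at 0 h and 410.2 and 503 at 6 h in si-BRG1. It rose under both siRNAs, by 0.53 under si-control and 1.72 under si-BRG1 on the log2 scale, and the interaction was 1.19 ± 0.14 (SE, adjusted p = 0.000694). MGAT4A, a glycosyltransferase of N-glycans, was at 39.0 and 43.5 CPM at 0 h and 17.9 and 16.8 at 6 h in si-control, and at 47.8 and 52.9 at 0 h and 42.4 and 46.2 at 6 h in si-BRG1. The fall seen in both si-control libraries was not called under si-BRG1, where the groups at 0 h and 6 h differed by -0.18 on the log2 scale, and the interaction was 1.07 ± 0.12 (SE, adjusted p = 0.000391).

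ENC1 (ENSG00000171617.9, chromosome 5, 73923234 to 73937249), an actin-binding kelch protein, had the smallest p-value of the 14 top genes, with an interaction of 1.06 ± 0.09 (SE, adjusted p = 2.50e-05). Its levels were 37.9 and 38.8 CPM at 0 h and 39.0 and 39.1 at 6 h in si-control, and at 29.8 and 30.3 at 0 h and 65.1 and 62.4 at 6 h in si-BRG1. The 4 si-control libraries lay close together, while both si-BRG1 libraries rose from a lower starting level. RAB31, a small GTPase, SH2D4A and SPATA13 also lay below si-control at 0 h under si-BRG1 and had a higher response. Their interactions were 1.06, 0.94 and 0.94. PDE5A, a cyclic GMP phosphodiesterase, rose by 1.94 under si-control and 2.90 under si-BRG1.

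**Figure D2:**
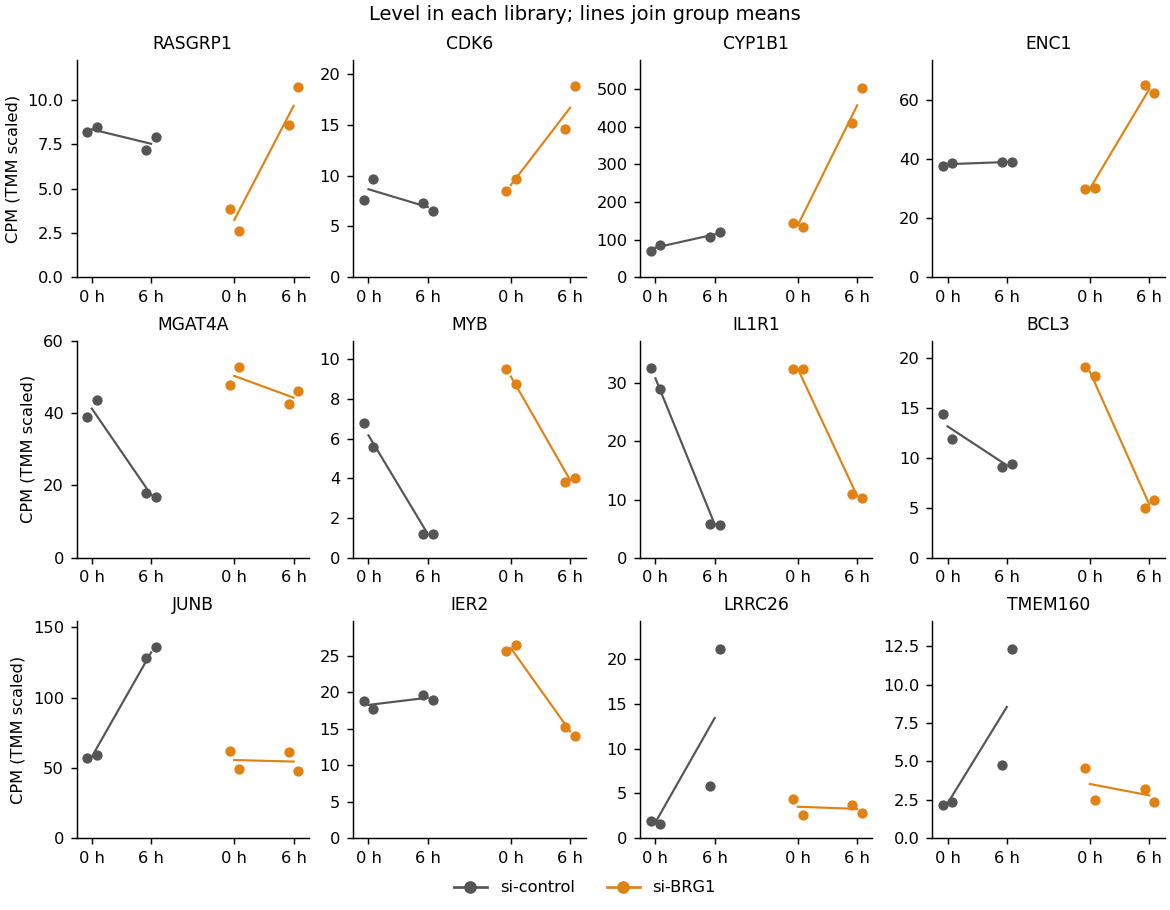
CPM in each library for 12 genes, with si-control in grey and si-BRG1 in orange, 0 h and 6 h side by side, 2 points per group and lines joining the group means; each y axis starts at 0. RASGRP1, CDK6, CYP1B1 and ENC1 gain in the si-BRG1 libraries, and MGAT4A, MYB and IL1R1 keep more of their level there. BCL3 and IER2 lose more under si-BRG1, JUNB gains only under si-control, and the gain of LRRC26 and TMEM160 is largest in 1 si-control library at 6 h.

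Steroid receptor genes were among those with a higher response. Of 22 receptors and coregulators measured, 3 were called higher and none lower, beside 1.49% and 3.72% of all genes. For those 22 the median interaction was 0.15, against 0.04 for all genes, and at an unadjusted p below 0.05 the counts were 6 higher and 1 lower, beside 9.42% and 11.5% of all genes. DESeq2's Wald test called 3 higher and none lower, beside 3.94% and 7.63% of the genes it tested. NR3C2, the mineralocorticoid receptor, was at 5.52 and 4.49 CPM at 0 h and 4.19 and 5.01 at 6 h in si-control, and at 5.57 and 5.58 at 0 h and 9.87 and 9.44 at 6 h in si-BRG1. Only si-BRG1 at 6 h was raised, and the interaction was 0.92 ± 0.16 (SE, adjusted p = 0.00652). PGR, the progesterone receptor (ENSG00000082175.10, chromosome 11, 100900355 to 101001255), was at 473 and 571 CPM at 0 h and 84.4 and 110.2 at 6 h in si-control, and at 641 and 632 at 0 h and 166 and 219 at 6 h in si-BRG1. It fell under both siRNAs, by 5.37-fold under si-control and 3.31-fold under si-BRG1, and all si-BRG1 libraries at 6 h lay above all si-control libraries at 6 h. The interaction of 0.70 ± 0.19 (SE, adjusted p = 0.0466) was called in 3 of the 8 fits that left out 1 library, where it ranged from 0.48 to 0.90. With a correction for exon length it was 0.54 (adjusted p = 0.0798). ESR1, the oestrogen receptor, had an interaction of 0.20 ± 0.09 (SE, adjusted p = 0.183), and NR3C1, the glucocorticoid receptor, of 0.31 ± 0.11 (SE, adjusted p = 0.117).

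Of 26 oestrogen receptor targets, 3 were called higher and 4 lower, beside 1.49% and 3.72% of all genes. The higher ones were IL1R1, MYB and PGR. The lower ones were TSKU, KRT19 and, named after their values were seen, CA12 and NHERF1. The median interaction of the list was -0.13. IL1R1, the interleukin-1 receptor, was at 32.6 and 29.1 CPM at 0 h and 5.76 and 5.67 at 6 h in si-control, and at 32.5 and 32.5 at 0 h and 11.0 and 10.2 at 6 h in si-BRG1. Hormone lowered it under both siRNAs and left a higher level under si-BRG1, with an interaction of 0.82 ± 0.12 (SE, adjusted p = 0.00186). MYB, a transcription factor of luminal cells, was at 6.78 and 5.55 CPM at 0 h and 1.17 and 1.21 at 6 h in si-control, and at 9.52 and 8.73 at 0 h and 3.79 and 4.02 at 6 h in si-BRG1, with an interaction of 1.15 ± 0.20 (SE, adjusted p = 0.00552). Both 6 h libraries of si-BRG1 were above both of si-control. Under si-FOXA1 MYB changed by 1.14 and under si-CBX3 by -2.21 on the log2 scale.

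Among classical progestin and glucocorticoid targets a few responses were called in each direction and the large inductions were kept. Of 32 measured, 3 were called higher and 5 lower, beside 1.49% and 3.72% of all genes. Among all genes with a mean of at least 2 on the log2 CPM scale the shares were 2.26% and 5.66%. The higher ones of the list were TSC22D3 and, named after their values were seen, PDK4 and CRISPLD2. The lower ones were FKBP5, KLF15, ERRFI1, TSKU and ANGPTL4. The list's median response was 2.11 under si-control and 1.93 under si-BRG1. FKBP5 (ENSG00000096060.10, chromosome 6, 35541362 to 35696360) was at 79.3 and 74.8 CPM at 0 h and 1140.3 and 1030.0 at 6 h in si-control, and at 116 and 117 at 0 h and 1165 and 1237 at 6 h in si-BRG1. Its fold was smaller under si-BRG1 with 0 h libraries above those of si-control, while the levels at 6 h differed by 0.15 on the log2 scale (adjusted p = 0.0988). The interaction was -0.45 ± 0.10 (SE, adjusted p = 0.0147). It ranged from -0.52 to -0.38 in the fits that left out 1 library. Fitted by edgeR on the 8 si-control and si-BRG1 libraries alone, FKBP5 was not called (adjusted p = 0.106), nor was TSC22D3 (adjusted p = 0.0971). TSC22D3, a glucocorticoid-induced leucine zipper protein, rose by 1.31 and 1.76, an interaction of 0.45 ± 0.10 (SE, adjusted p = 0.0163). KLF15, a Krüppel-like transcription factor, rose by 4.53 and 3.75, an interaction of -0.78 ± 0.20 (SE, adjusted p = 0.0345) that was called in 1 of the 8 fits without a library. SGK1, a kinase of sodium transport, rose by 5.96 and 5.68, and its interaction of -0.28 ± 0.28 (SE, adjusted p = 0.600) was not called.

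The genes that hormone changed most were chosen from the si-CBX3 and si-FOXA1 libraries, which take no part in the contrast. Of the 8 most induced there, 2 had a higher response under si-BRG1. ACOT6 (ENSG00000205669.2, chromosome 14, 74077649 to 74086592), an acyl-CoA thioesterase, was at 3.84 and 3.06 CPM at 0 h and 49.4 and 42.9 at 6 h in si-control, and at 2.42 and 2.37 at 0 h and 66.0 and 58.9 at 6 h in si-BRG1, an interaction of 0.96 ± 0.17 (SE, adjusted p = 0.00522). DNAJB4, a heat shock protein 40 chaperone, was at 8.83 and 10.1 CPM at 0 h and 75.6 and 93.6 at 6 h in si-control, and at 6.36 and 7.32 at 0 h and 136 and 138 at 6 h in si-BRG1, an interaction of 1.17 ± 0.15 (SE, adjusted p = 0.00103). In both genes si-BRG1 lay below si-control at 0 h and above it at 6 h. Of the others, KCNH1, OTULINL, ARHGAP26, TMEM63C and GPSM2 were not called, with interactions between 0.10 and 0.24.

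Of the 8 genes most repressed in those libraries, 1 was called: CISH, a feedback inhibitor of cytokine signalling, fell by 1.68 under si-control and by 2.26 under si-BRG1, an interaction of -0.58 ± 0.16 (SE, adjusted p = 0.0474) that no fit without a library called, nor the fit with DESeq2 size factors (adjusted p = 0.0504). The other 7 fell under both siRNAs. AMIGO2, an adhesion protein, was at 94.9 and 96.8 CPM at 0 h and 7.37 and 8.44 at 6 h in si-control, and at 79.6 and 78.0 at 0 h and 5.56 and 5.96 at 6 h in si-BRG1, an interaction of -0.17 ± 0.14 (SE), not called. VAV3, a guanine nucleotide exchange factor, was at 512 and 504 CPM at 0 h and 77.4 and 66.6 at 6 h in si-control, and at 356 and 348 at 0 h and 63.7 and 57.8 at 6 h in si-BRG1, an interaction of 0.28 ± 0.11 (SE, adjusted p = 0.149). In both genes the drop from 0 h to 6 h was far larger than the difference between the siRNAs. LMCD1, SPRY1, MECOM and ENSG00000260401 had interactions of 0.03, -0.07, 0.41 and 0.12, and LIN28A, which was higher under si-BRG1 at both times, of 0.57 ± 0.30 (SE, adjusted p = 0.286).

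Larger classes were chosen in the same way. Genes induced in the si-CBX3 and si-FOXA1 libraries by 2-fold or more (974 genes) had a median response of 1.51 under si-control and 1.72 under si-BRG1. Of these, 56 (5.75%) were called higher and 22 (2.26%) lower, beside 1.49% and 3.72% of all genes. Repressed genes (767) had medians of -1.03 and -1.06, with 8 (1.04%) called higher and 32 (4.17%) lower. Among genes with a mean of at least 2 on the log2 CPM scale, 2.26% of 11076 were called higher and 5.66% lower. In that range 12.0% of 392 induced genes were called higher and 4.34% lower, and 3.63% of 193 repressed genes were called higher and 10.9% lower. By ratios without siRNA, where there is 1 library per time and no test, 62 of 1021 induced genes (6.07%) were called higher and 58 (5.68%) lower. Of 332 repressed genes, 8 (2.41%) were called higher and 18 (5.42%) lower. With a mean of at least 2, 6.45% of 868 such induced genes were called in each direction, and 3.04% of 263 repressed genes were called higher and 6.46% lower, so that the lower shares were near those of all genes in that range.

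Immediate-early genes, which respond to growth factor and stress signals within minutes, had lower responses under si-BRG1 where they were called. Of 31 measured, 6 were called lower (JUNB, IER2, SRF and BTG2, and, named after their values were seen, JUND and ZFP36) and none higher. Among all genes 3.72% were called lower and 1.49% higher, and among those with a mean of at least 2 the shares were 5.66% and 2.26%. At an unadjusted p below 0.05 the counts were 11 lower and 0 higher, beside 11.5% and 9.42% of all genes. DESeq2's Wald test called 7 and 0, beside 7.63% and 3.94% of the genes it tested. The median interaction of the 31 was -0.44. Fitted by edgeR on the 8 si-control and si-BRG1 libraries alone, JUNB and IER2 were called. SRF and BTG2 were not called there (adjusted p = 0.0821 and 0.148). JUNB (ENSG00000171223.4, chromosome 19, 12902310 to 12904124), a subunit of the AP-1 transcription factor, was at 57.1 and 58.8 CPM at 0 h and 128 and 136 at 6 h in si-control, and at 62.1 and 49.1 at 0 h and 61.2 and 47.8 at 6 h in si-BRG1. Both si-control libraries at 6 h stood above all 6 others, and the interaction was -1.22 ± 0.18 (SE, adjusted p = 0.00258). IER2, another early response gene, was at 18.8 and 17.7 CPM at 0 h and 19.6 and 18.9 at 6 h in si-control, and at 25.7 and 26.5 at 0 h and 15.3 and 14.0 at 6 h in si-BRG1. It was flat under si-control and started higher and ended lower under si-BRG1, an interaction of -0.91 ± 0.12 (SE, adjusted p = 0.00134). The log2 response of IER2 was -1.27 under si-CBX3 and -0.66 under si-FOXA1, beside -0.83 under si-BRG1. That of JUNB was 0.59 and 0.32 under those 2 siRNAs, between -0.03 under si-BRG1 and 1.19 under si-control. BHLHE40, a transcriptional repressor of the circadian clock list, was at 137 and 117 CPM at 0 h and 196 and 154 at 6 h in si-control, and at 181 and 184 at 0 h and 153 and 143 at 6 h in si-BRG1. Its responses were called in opposite directions and the interaction was -0.76 ± 0.14 (SE, adjusted p = 0.00614).

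Of 13 NF-kB targets measured, 4 were called lower (BCL3, TNFAIP2, RELB and NFKB2) and none higher, beside 3.72% and 1.49% of all genes. The counts were 5 lower and 1 higher at an unadjusted p below 0.05, beside 11.5% and 9.42% of all genes. They were the same by DESeq2's Wald test, beside 7.63% and 3.94% of the genes it tested. The median of the list was 0.10 and 7 of the 13 lay above 0. BCL3, a nuclear partner of NF-kB subunits, was at 14.5 and 11.9 CPM at 0 h and 9.12 and 9.40 at 6 h in si-control, and at 19.1 and 18.2 at 0 h and 4.95 and 5.74 at 6 h in si-BRG1. The si-BRG1 libraries were the highest before hormone and the lowest after it, and the interaction was -1.29 ± 0.17 (SE, adjusted p = 0.00103). RELB and NFKB2 encode NF-kB subunits and had interactions of -0.69 (adjusted p = 0.0460) and -0.40 (adjusted p = 0.0476). Of the 8 fits without a library, 2 called RELB, 2 NFKB2 and 4 TNFAIP2, while all 8 called BCL3, and NFKB2 was not called with DESeq2 size factors (adjusted p = 0.0506) or with the length correction (adjusted p = 0.0509). ANGPTL4, a secreted inhibitor of lipoprotein lipase, was at 11.9 and 10.2 CPM at 0 h and 8.61 and 7.17 at 6 h in si-control, and at 11.9 and 12.0 at 0 h and 3.41 and 3.65 at 6 h in si-BRG1, an interaction of -1.28 ± 0.18 (SE, adjusted p = 0.00168). VASN, a membrane protein that binds TGF-beta, was at 43.2 and 38.0 CPM at 0 h and 31.8 and 32.0 at 6 h in si-control, and at 47.8 and 40.5 at 0 h and 15.3 and 14.2 at 6 h in si-BRG1, an interaction of -1.23 ± 0.14 (SE, adjusted p = 0.000391). Both genes were level between siRNAs at 0 h and lower under si-BRG1 at 6 h. The log2 responses of ANGPTL4 and VASN were -2.12 and -1.50 under si-CBX3, and -1.91 and -1.67 under si-FOXA1. Under si-BRG1 they were -1.76 and -1.58, and under si-control -0.48 and -0.35. ID3, an inhibitor of helix-loop-helix factors, and SPDEF, an Ets factor of luminal cells, had interactions of -0.83 and -0.75.

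Of 23 genes of cholesterol synthesis and uptake, 4 were called lower, MVD, LSS and MVK among them, and none higher, beside 3.72% and 1.49% of all genes. The counts were 9 lower and 0 higher at an unadjusted p below 0.05, beside 11.5% and 9.42% of all genes. They were 4 and 0 by DESeq2's Wald test, beside 7.63% and 3.94% of the genes it tested. MVD, a decarboxylase of the mevalonate pathway, was at 96.5 and 91.4 CPM at 0 h and 136 and 124 at 6 h in si-control, and at 103 and 98.8 at 0 h and 95.2 and 90.2 at 6 h in si-BRG1. It rose under si-control alone, an interaction of -0.59 ± 0.11 (SE, adjusted p = 0.00737). LSS, the cyclase that makes lanosterol, had an interaction of -0.59 ± 0.12 (SE, adjusted p = 0.00978), and the list's median was -0.10. Among 23 ATF4 and unfolded-protein genes, SDF2L1 and DDIT4 were called lower, with interactions of -0.92 and -0.45, and none higher. Over all genes the shares were 3.72% and 1.49%. The counts in the list were 11 lower and 0 higher at an unadjusted p below 0.05, beside 11.5% and 9.42% of all genes. DESeq2's Wald test called 3 and 0, beside 7.63% and 3.94% of the genes it tested.

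No gene of the 26 of G1/S and DNA replication was called by edgeR (4 higher and 3 lower at an unadjusted p below 0.05, and 1 each by DESeq2's Wald test). None of the 29 of G2/M was called either (6 and 0 unadjusted, none by DESeq2). The G2/M median was 0.22, with 24 of 29 genes above 0: the list's median response was -0.29 under si-control and -0.07 under si-BRG1. Of 25 SWI/SNF subunits BCL7C was called lower (-0.65), and of 19 HP1 proteins and co-repressors SUV39H2 was called higher (0.50) and TRIM28 lower (-0.39). Over all genes tested, edgeR called 1.49% higher and 3.72% lower, and the shares at an unadjusted p below 0.05 were 9.42% and 11.5%. DESeq2's Wald test called 3.94% higher and 7.63% lower of the genes it tested. None of 6 linker histone genes was called by edgeR (1 lower and 0 higher at an unadjusted p below 0.05, and the same by DESeq2). H1-2, which encodes the linker histone H1.2, was at 88.6 and 82.0 CPM at 0 h and 88.0 and 75.4 at 6 h in si-control, and at 66.1 and 65.6 at 0 h and 77.8 and 58.2 at 6 h in si-BRG1. Both si-BRG1 libraries at 0 h lay below all 4 si-control libraries, with a difference of -0.37 between the siRNAs at 0 h on the log2 scale (adjusted p = 0.0141), while at 6 h the siRNA groups overlapped. The interaction was 0.11 ± 0.15 (SE, adjusted p = 0.723).

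Interferon-stimulated genes differed between the si-control libraries before hormone. The 35 measured summed to 7387 and 3724 CPM in the 2 si-control libraries at 0 h, 4705 and 4297 at 6 h, 2082 and 2188 in si-BRG1 at 0 h and 1436 and 1384 at 6 h. TRIM22 was called higher, at 4.19 and 2.02 CPM at 0 h and 29.4 and 25.4 at 6 h in si-control, and at 0.403 and 0.472 at 0 h and 9.92 and 12.5 at 6 h in si-BRG1, an interaction of 1.54 ± 0.37 (SE, adjusted p = 0.0250) that was called in 4 of the 8 fits without a library. It was 0.91 (adjusted p = 0.0641) without si-control 0 h replicate 1 and 1.98 without replicate 2 of that group. IRF7, a transcription factor of the interferon response, was called lower (-1.19 ± 0.30 (SE, adjusted p = 0.0305), in 2 of the 8 fits). ISG15, a ubiquitin-like modifier, was at 124 and 48.0 CPM at 0 h and 112 and 97.1 at 6 h in si-control, and at 20.6 and 18.4 at 0 h and 11.9 and 8.63 at 6 h in si-BRG1, and its interaction of -1.21 ± 0.45 (SE, adjusted p = 0.131) ranged from -2.05 to -0.67 in those fits. The list of 35 had 1 gene called in each direction, beside 1.49% and 3.72% of all genes, and a median interaction of -0.34. The part of the uneven si-control libraries at 0 h in these values was not tested.

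The remaining lists stand beside 1.49% of all genes called higher and 3.72% called lower. At an unadjusted p below 0.05 those shares were 9.42% and 11.5%, and by DESeq2's Wald test 3.94% and 7.63% of the genes it tested. Of 24 luminal markers, 2 were called higher, PGR among them, and 4 lower. The lower ones were SPDEF, ELF3, KRT19 and, named after its values were seen, CLDN4. The p53 targets had 2 and 2 of 21, hypoxia and glycolysis 1 and 2 of 25, and TGF-beta and BMP response, KLF factors, clock genes and MAP kinase feedback 1 in each direction. Of 18 fatty acid genes 1 was lower and none higher. Of 8 mesenchymal and 4 endothelial markers 1 each was lower (COL1A1, -0.55, and EGFL7, -0.75) and none higher. No basal marker and no leukocyte marker was called by edgeR (at an unadjusted p below 0.05, 1 higher and 3 lower basal and 1 lower leukocyte marker, and by DESeq2's Wald test 1 higher basal marker).

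In some of the largest lower responses 1 si-control library at 6 h stood apart. The first si-BRG1 library at 0 h also lay above the second in LRRC26, TMEM160, CCDC85B, MRPL38, PDF, HES4 and COMTD1. In CITED4 it did so by little (12.3 against 11.0 CPM). For MRPL38 (13.0 against 7.97 CPM) the interaction shrank most without the first si-BRG1 library at 0 h, to -1.04. LRRC26 (ENSG00000184709.7, chromosome 9, 140063210 to 140064503), an auxiliary subunit of potassium channels, had the largest fall in response among well measured genes, -3.04 ± 0.66 (SE, adjusted p = 0.0163). Its levels were 1.93 and 1.59 CPM at 0 h and 5.78 and 21.1 at 6 h in si-control, and at 4.42 and 2.60 at 0 h and 3.75 and 2.78 at 6 h in si-BRG1. The second si-control library at 6 h stood above all 7 others, and without it the interaction was -1.83 (adjusted p = 0.0720). TMEM160, a small membrane protein, was at 2.16 and 2.34 CPM at 0 h and 4.74 and 12.3 at 6 h in si-control, and at 4.57 and 2.48 at 0 h and 3.20 and 2.37 at 6 h in si-BRG1, an interaction of -2.28 ± 0.50 (SE, adjusted p = 0.0170) that became -1.43 (adjusted p = 0.0830). CCDC85B, PDF, HES4, MRPL38, COMTD1 and CITED4 had the same excess in that library and also lost their calls without it, at -1.34, -1.11, -0.96, -1.08, -0.94 and -0.80. The sign stayed. Each of these 8 calls was also lost without si-control 0 h replicate 2 and without si-BRG1 0 h replicate 1. Among the 700 genes called lower, the second si-control library at 6 h exceeded the first by 1.5-fold or more in 21. Only 22 of 11076 genes with a mean of at least 2 on the log2 CPM scale did so.

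In contrast, JUNB, BCL3, ANGPTL4, VASN, IER2, ID3, SPDEF, BHLHE40 and RAB24 were called lower in all 8 fits that left out 1 library, as were 13 of the 14 top genes called higher. The exception was PDE5A, called in 7. Across those fits the interaction ranged from 1.47 to 2.04 for RASGRP1, 1.03 to 1.09 for ENC1, 0.99 to 1.29 for MYB, -1.41 to -1.04 for JUNB and -1.44 to -1.14 for BCL3. Over all genes, 44 of the 281 called higher and 87 of the 700 called lower were called in every one of the 8 fits, while 189 and 421 were called in 4 or fewer. The sign of all 981 stayed the same in each fit. It could hardly change, since the responses were separated between the siRNAs in 279 of the 281 and 700 of the 700.

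Every library changed the number of calls when left out. In each of these fits some of the original calls were lost, also where a total rose, so the totals do not show how many were kept. Without si-BRG1 0 h replicate 1, 47 genes were called higher and 100 lower, and without si-control 6 h replicate 2 the numbers were 71 and 149. Without si-BRG1 0 h replicate 2 there were 97 and 315, without si-control 6 h replicate 1 140 and 437, and without si-control 0 h replicate 2 146 and 212. Leaving out si-control 0 h replicate 1 gave 325 and 550, and si-BRG1 6 h replicate 2 gave 367 and 822. Leaving out si-BRG1 6 h replicate 1 raised the calls to 1178 and 1682, of which 274 and 682 were among the original ones. In each fit the library left alone in its group was assumed to vary like the other groups. The spread shared with the si-CBX3 and si-FOXA1 libraries also counted: fitted on the 8 libraries alone, 21 genes were called higher and 40 lower, all among the 281 and 700. That fit has 4 residual degrees of freedom against 8, and a biological coefficient of variation of 0.0884 against 0.0725.

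**Figure D3:**
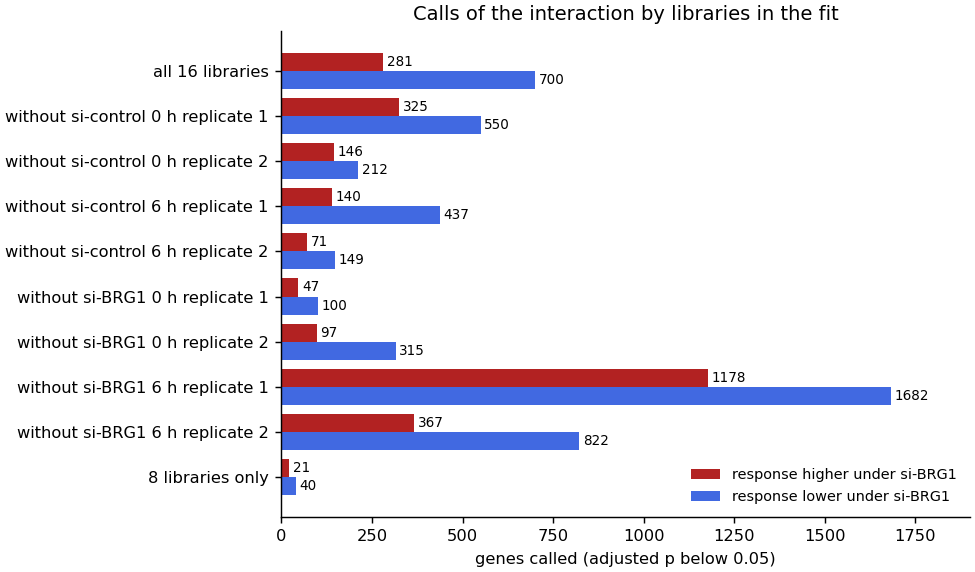
Bars give the number of genes called higher (red) or lower (blue) in the interaction when all 16 siRNA libraries were fitted, when each of the 8 si-control and si-BRG1 libraries was left out, and when these 8 alone were fitted; the x axis counts genes. Calls drop to 47 and 100 without the first si-BRG1 library at 0 h and rise to 1178 and 1682 without the first si-BRG1 library at 6 h.

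The 2 si-BRG1 libraries at 6 h differed from each other more than those of the other 3 groups. A chi-square comparison of their counts gave 53.4 per degree of freedom over genes, against 26.3 for si-control at 0 h, 8.32 for si-control at 6 h and 6.79 for si-BRG1 at 0 h. The difference followed exon length, over 5 bins of genes. In the bin of the shortest expressed genes replicate 1 exceeded replicate 2 by a median of 0.26 on the log2 scale, and in the bin of the longest the median was -0.12. In the other 3 groups the medians of all bins lay between -0.03 and 0.06. In the interaction the trend had a median of -0.07 in the shortest bin and 0.12 in the longest. Without si-BRG1 6 h replicate 1 these were -0.22 and 0.19, and without replicate 2 they were 0.0318 and 0.045. Among genes with a mean of at least 2 on the log2 CPM scale, those called higher had a median exon length of 6712 bases and those called lower of 4115, against 4910.5 for all 11076. From the shortest to the longest bin 4, 22, 29, 76 and 119 genes were called higher and 42, 168, 171, 156 and 90 lower.

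**Figure D4:**
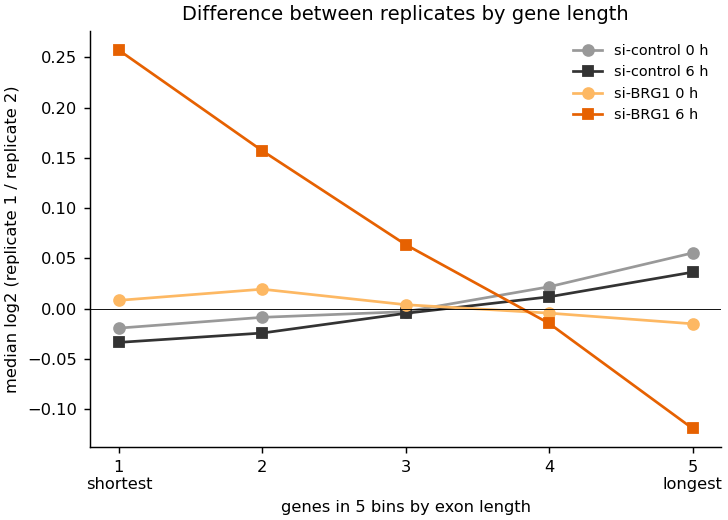
The y axis gives the median log2 ratio of replicate 1 to replicate 2 within a group, and the x axis 5 bins of genes by exon length, from shortest to longest, for genes with a mean of at least 2 on the log2 CPM scale. The line of si-BRG1 at 6 h runs from 0.26 to -0.12, while the 3 other groups stay between -0.03 and 0.06.

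With a smooth correction for exon length in each library, an alternative chosen after seeing the data, 357 genes were called higher and 777 lower.

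The same genes were read in the si-CBX3 and si-FOXA1 libraries, which were not part of the contrast but were counted with a separate command. In the 281 genes called higher the median response was -0.19 under si-control, 0.36 under si-BRG1, 0.26 under si-CBX3 and 0.33 under si-FOXA1. In the 700 called lower it was 0.35 under si-control, -0.28 under si-BRG1, 0.03 under si-CBX3 and -0.21 under si-FOXA1. The mean of the si-CBX3 and si-FOXA1 responses lay nearer to the si-BRG1 response than to that of si-control in 203 of the 281 genes (72.2%) and 559 of the 700 (79.9%), and in 58.9% of all genes tested. BCL3 fell by 1.95 under si-CBX3 and 1.41 under si-FOXA1, against 0.51 under si-control, and RASGRP1 rose by 2.73 and 2.04, against -0.15 under si-control. NR3C2 went the other way, with 0.02 and -0.06 under these siRNAs, close to -0.12 under si-control. Whether the si-control libraries or the knockdowns account for the differences cannot be told apart where all 3 knockdowns lie on the same side.

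**Figure D5:**
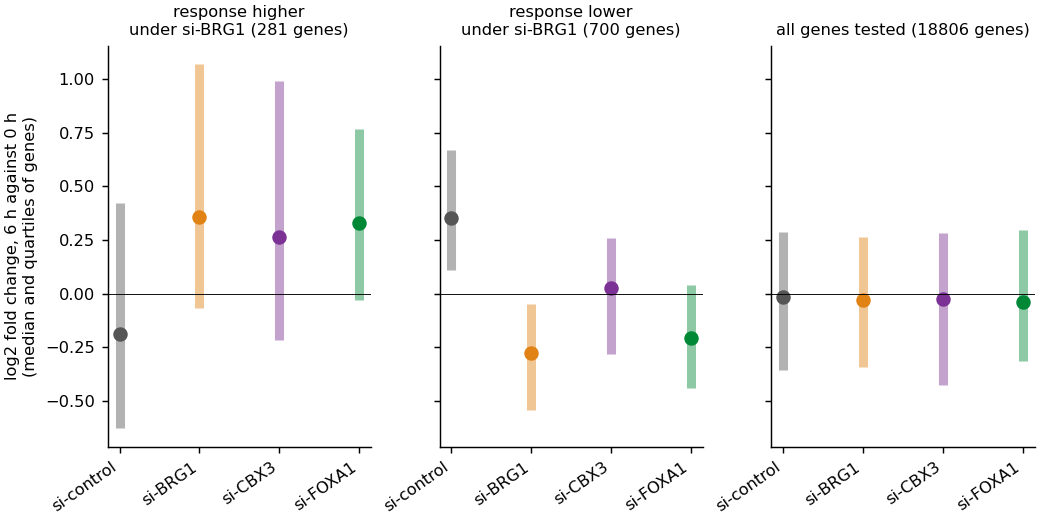
Dots give the median log2 fold change from 0 h to 6 h under each of 4 siRNAs and bars the range from the lower to the upper quartile, for genes called higher, genes called lower and all genes tested. In the called sets si-control stands on 1 side and the si-BRG1 median on the other, with the si-CBX3 and si-FOXA1 medians nearer to si-BRG1 in the first set and between them in the second; over all genes the 4 medians lie between -0.04 and -0.02.

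BRG1 binding was compared with the interaction through the deposited peak lists, which come from 1 library each in cells without siRNA (2288 peaks at 0 min and 6180 at 30 min of hormone, and the scores are the authors'). Of 1681 genes with a peak within 5 kb of the 5 prime end at 30 min only, 51 (3.03%) were called higher and 53 (3.15%) lower, beside 1.49% and 3.72% of all genes. Genes with a peak were more highly expressed than most. Among genes with a mean of at least 2 on the log2 CPM scale the shares were 4.07% and 4.15%, beside 2.26% and 5.66%. Of 356 genes with a peak at 0 min, 11 (3.09%) were called in each direction. Of the called genes picked out by the naming rules, those with a 30 min peak over their 5 prime end and none at 0 min were, on hg19, ENC1 (chr5:73934596-73937465), ACOT6 (chr14:74077098-74078314), FKBP5 (chr6:35693131-35696411), BHLHE40 (chr3:5018499-5023061), LRRC26 (chr9:140062196-140065140), SRF (chr6:43138697-43139921), BTG2 (chr1:203273758-203275852) and the TGF-beta pseudoreceptor gene BAMBI (chr10:28965543-28966767, interaction 0.42). The peak of PGR (chr11:100997483-101000957) ended 298 bases inside the gene from the 5 prime end, and that of NR3C2 (chr4:149362949-149363781) 2069 bases. CITED4 had a peak in both lists.

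Promoter sequence is shown for 1 gene called in each direction whose 5 prime end lay in a peak found at 30 min only. These are the 250 bases before the RefSeq start on GRCh38.p14, given 5 prime to 3 prime on the gene's strand. Capitals mark the match to a motif.
ACOT6: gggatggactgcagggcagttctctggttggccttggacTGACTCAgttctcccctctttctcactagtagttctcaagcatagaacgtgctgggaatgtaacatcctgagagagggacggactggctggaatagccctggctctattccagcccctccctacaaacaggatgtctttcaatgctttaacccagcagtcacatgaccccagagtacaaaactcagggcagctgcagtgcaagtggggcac
BHLHE40: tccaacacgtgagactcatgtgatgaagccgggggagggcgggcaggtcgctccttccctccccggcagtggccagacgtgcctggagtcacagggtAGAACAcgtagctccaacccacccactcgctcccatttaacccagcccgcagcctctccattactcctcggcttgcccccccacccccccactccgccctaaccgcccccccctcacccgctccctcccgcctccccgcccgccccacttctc
The ACOT6 window (chromosome 14, 73610695 to 73610944, plus strand) holds 1 match to the AP-1 motif TGANTCA. The BHLHE40 window (chromosome 3, 4979187 to 4979436, plus strand) holds 1 match to the progesterone receptor hexamer TGTTCT, on the opposite strand as AGAACA. Both strands were searched. The hexamer occurred in 12.4% of 35116 promoter windows of this length, the AP-1 motif in 6.57% and the full palindromic progesterone receptor site, which can overlap the hexamer, in 0.327%. The windows taken for FKBP5 and CITED4 held none of the 3, and neither of the windows shown held the full site. A match is a description of letters and not a site.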

How the data were processed

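RNA-seq counts per gene were used from 16 siRNA libraries, of which 8 enter the comparison. The deposited files hold counts of fragments per gene, without normalization, made by the authors with featureCounts 1.4.6-p2 in paired, reverse-stranded mode on GENCODE v19 models of hg19, per the file headers. The headers record 8 threads for the si-control and si-BRG1 files and 1 for the others, so the sets were counted with separate commands. Per the submitters' processing notes reads were handled with Trimmomatic and STAR, versions not stated. The 2 libraries without siRNA were deposited as estimated reads and RPKM values per transcript, summed here per gene and compared as log2 of RPKM plus 1. Each deposited peak has a score given by the authors' caller, and the peak names are those of MACS.

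Symbols matched 51996 of 57820 genes through RefSeq and gene name tables. In R 4.3.3 with edgeR 4.0.16, 18806 genes passed filterByExpr, TMM scaled the libraries, and a single quasi-likelihood model of all 16, a mean per group and no replicate block, gave two-sided tests adjusted by Benjamini-Hochberg. The fit was tested on simulated counts. Library totals of 58296067 to 74374857 set the precision. Standard errors are the log2 fold change divided by the root of F. Alternatives were DESeq2 size factors, no filter, DESeq2 1.42.0, the 8 libraries alone, a replicate block, each library left out and a length correction.

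Named genes were those of the study's question, the 14 largest differences in each direction among called genes with a mean log2 CPM of at least 2 and separated responses, the 8 most induced and 8 most repressed genes of the other knockdowns with a mean of at least 3, and up to 4 per list with the lowest p. Some of these genes are not reported here. The comparison, the members and the gene lists were chosen with earlier results of these data known. List counts are descriptions, with no set test. Replicate numbers come from titles and nothing says that equal numbers share a culture.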

Additional observations from a re-analysis of the deposited data

Results flagged for a closer look

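The difference between the hormone responses under si-BRG1 and si-control was itself tested, and it was called higher for 281 genes and lower for 700 genes by edgeR's quasi-likelihood test. These are 1.49% and 3.72% of the genes tested. The groups of 2 libraries are too small for a search for single outlying samples.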

How the results depend on the processing

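Of the 137 named genes, 71 were called; 2 of these lost their call with DESeq2 size factors and 54 in the fit of 8 libraries. For all genes, the calls numbered 533 higher without a filter on low counts (889 lower), 526 by DESeq2's Wald test (1018 lower), and 21 higher and 40 lower with 8 libraries only. Leaving out 1 library gave 47 to 1178 higher and 100 to 1682 lower. With a replicate block the counts were 206 and 541; correlations of the replicate difference between groups ran from -0.313 to 0.271, so the numbers were not taken as pairs, and 9 named genes lost their call, PGR, RELB, NFKB2 and CISH among them. The length correction gave 357 and 777. Among genes induced in the other knockdowns, 56 higher calls became 85 without a filter, 9 with 8 libraries and 17 to 113 without a library, and 22 lower calls became 35 by DESeq2, 1 with 8 libraries and 9 to 39 without a library. Among repressed genes, 8 higher calls became 21 without a filter, 1 with 8 libraries and 2 to 27 without a library, and 32 lower calls became 5 with 8 libraries and 11 to 43 without a library. With a pseudocount of 0.1, 15 and 31 genes repressed without siRNA were called, against 8 and 18. With the higher-scoring peaks alone, 5 and 4 genes with a 0 min peak were called, against 11 and 11. The cause of these shifts was not tested. No called value of a named gene changed sign in these settings. In the fits without a library this followed largely from the separated responses of called genes. Depth limits low genes: the SE of the interaction was 2.76 for CDH5, listed at 0 in 4 of 8 libraries, against 0.09 for ENC1.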
